A study of Mus musculus with 6 samples.

Results

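The sarcomeric myosin heavy chains of limb muscle were followed through 4 probes, which the platform's annotation assigns to Myh7, Myh2, Myh1 and Myh4. They are 4 of 223 probes on a low-density array, and each gene has 1 probe. The members were taken by symbol, with earlier results of these data known. The muscle was the soleus, a postural muscle of the calf, of 129/SV mice deficient in tenascin-C, a matrix glycoprotein encoded by Tnc. The mice had been reloaded for 1 day, meaning that the hindlimb bore weight again. All 6 animals, 1 array each, form 1 group that shares genotype and treatment, and neither an unloaded nor a wild-type group was analysed here. Total RNA, 4 µg per sample, came from cryosections of the muscle belly, so all cell types of the tissue contributed to it. The labels give no age, sex or allele design. With 1 array per animal, an animal and its array cannot be told apart.

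The myosin heavy chain is the motor of the thick filament, and the isoform that a fibre makes sets much of its speed of shortening. Myh7 encodes the slow (type I) chain, which the heart also makes. Myh2 encodes the fast IIa chain of fatigue-resistant fibres, Myh1 the faster IIx chain, and Myh4 the IIb chain of the fastest, most glycolytic fibres. The rodent soleus is known mainly for type I and IIa fibres. As background, relief from load is known to move it towards fast isoforms, and weight bearing to bring the slow one back.

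The genes for the fast chains are neighbours on mouse chromosome 11, in the order Myh2, Myh1, Myh4, between Myh3 and Myh8, the embryonic and perinatal chains. Myh7 lies on chromosome 14 beside Myh6, the alpha cardiac chain. The 250 bases before each annotated start are shown because the fast genes share a stretch that the slow gene lacks (RefSeq, build GRCm38.p6). The windows are chr11:67170777-67171026, chr11:67199852-67200101 and chr11:67237562-67237811 on the plus strand, and chr14:54994627-54994876 on the minus strand. Each is written 5′ to 3′ along its gene, and capitals mark words of 9 or more bases common to the 3 fast windows.
Myh2: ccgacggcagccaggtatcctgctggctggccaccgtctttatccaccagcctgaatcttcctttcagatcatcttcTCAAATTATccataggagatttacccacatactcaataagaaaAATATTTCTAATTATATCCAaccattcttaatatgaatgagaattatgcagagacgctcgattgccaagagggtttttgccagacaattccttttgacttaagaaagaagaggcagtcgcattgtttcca
Myh1: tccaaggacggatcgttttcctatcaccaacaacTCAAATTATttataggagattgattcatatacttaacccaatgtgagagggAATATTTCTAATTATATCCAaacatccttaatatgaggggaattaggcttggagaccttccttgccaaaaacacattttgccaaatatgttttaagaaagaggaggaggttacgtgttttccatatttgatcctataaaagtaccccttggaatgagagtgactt
Myh4: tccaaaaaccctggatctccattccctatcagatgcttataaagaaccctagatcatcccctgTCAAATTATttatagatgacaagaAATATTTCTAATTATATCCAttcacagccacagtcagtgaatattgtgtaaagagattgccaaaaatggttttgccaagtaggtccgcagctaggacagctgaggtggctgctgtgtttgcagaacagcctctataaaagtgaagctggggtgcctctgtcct
Myh7: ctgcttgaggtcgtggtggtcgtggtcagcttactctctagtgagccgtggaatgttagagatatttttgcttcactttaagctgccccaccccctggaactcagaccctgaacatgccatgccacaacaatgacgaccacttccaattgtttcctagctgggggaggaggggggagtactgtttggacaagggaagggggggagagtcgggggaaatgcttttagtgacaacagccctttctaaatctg

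The longer word, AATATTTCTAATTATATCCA, has 20 bases and begins at −130 in Myh2, −165 in Myh1 and −163 in Myh4, counted from the annotated start. Of 32851 promoter windows of this length, 3 held it on either strand (0.00913%). These were the 3 fast myosin windows from which the word was taken. That they hold it follows from this choice, and the count adds only that no other window did. The shorter word, TCAAATTAT, began at −173, −216 and −187 and was found in 57 windows (0.174%). Neither word was in the 2 windows that the table lists for Myh7, whose starts lie 77 bases apart; the window further upstream is printed. The longest word that Myh7 shared with a fast gene had 9 bases, against 20 or 21 between fast genes.

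Known motifs were searched on both strands of the same windows. The MEF2 motif, the site of a family of muscle transcription factors, matched once in Myh1 (−211) and once in Myh4 (−182), against 2.92% of all windows. Both matches overlapped a TATAAA, of which Myh1 had 2 and Myh4 had 3, against 12.4% of windows with any. The CArG box, the site of serum response factor, matched in Myh4 alone (−104; 1.47% of windows). The E-box CANNTG, bound by MyoD and its relatives, had 2 matches in Myh4, 1 and 2 in the windows of Myh7 and none in Myh1 and Myh2, against 66.2% of windows. These matches are letters only, and no binding was measured here.

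The intensities are relative to each array, and the lowest intensity of an array served as its floor. Apart from the unnamed probe 1M and 1O, a 28S rRNA probe, the intensities of an array summed to between 0.995 and 0.999. Arrays 1 and 2 stood apart: there 1M and 1O summed to 41.3 and 40.5, against 0.876 to 3.21 on arrays 3 to 6. The floor was 0.003 on arrays 1 and 2 and between 0.0006 and 0.0018 on the others, and 19 and 20 probes reached 2 times it, against 37 to 104. The results are therefore given over all 6 arrays and over arrays 3 to 6. The part of these differences in any result below was not tested. The Tnc probe gave 4.07 and 4.50 times the floor on arrays 1 and 2, more than Myh7 there, and 1.11 to 2.78 times on arrays 3 to 6; since its place relative to the deletion is unknown here, it does not check the genotype.

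All 4 myosin heavy chains gave signal above the floor on all 6 arrays, as did 89.1% of the probes within the scaling. A stricter reading was 2 times the floor on each of arrays 3 to 6. All 4 met it, against 13.6% of probes (30 in all). Only Myh7 met it on all 6 arrays, against 2.26% (5 in all). A lower signal in this tissue RNA could come from fewer fibres of a type or from less RNA per fibre, and these cannot be told apart here.

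Myh7, the slow chain, had an intensity of 0.0069 on array 1, 0.0080 on array 2, 0.0409 on array 3, 0.0693 on array 4, 0.0343 on array 5 and 0.0359 on array 6. Divided by the floor, arrays 1 and 2 gave 2.30 and 2.67, and the other arrays 22.7, 77.0, 28.6 and 59.8. Arrays 1 and 2 were low, arrays 4 and 6 the highest over the floor, and the 2 sets of arrays did not overlap. This split was not particular to Myh7. Mb (myoglobin) gave 2.5 and 2.53 times the floor on arrays 1 and 2, against 30.3 to 106 times on arrays 3 to 6. Aldoa, an aldolase, gave 4.83 and 6.4 times against 54.9 to 239 times. The Tnc probe, given above, went the other way. How many of all probes split like Myh7 was not counted. In rank Myh7 was place 12 and 9 from the top on arrays 1 and 2, and between place 3 and place 6 on arrays 3 to 6. It was thus among the brightest probes of every array.

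Myh1, the IIx chain, had intensities of 0.0055, 0.0053, 0.0226, 0.0287, 0.0207 and 0.0357 in array order. Over the floor these were 1.83 and 1.77 times, then 12.6, 31.9, 17.3 and 59.5 times. Array 6 was the highest by this measure and by intensity, and on it Myh1 came close to Myh7, with 0.0357 against 0.0359. Its rank lay between 7 and 10 on arrays 3 to 6, and was 25 and 27 on arrays 1 and 2.

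Myh2, the IIa chain, had intensities of 0.0048, 0.0042, 0.0126, 0.0296, 0.0160 and 0.0191 in array order. Over the floor these were 1.60 and 1.40 times, then 7.0, 32.9, 13.3 and 31.8 times. Array 4 was its highest by intensity, where it passed Myh1. On arrays 1 and 2 it ranked 41 and 52, among many probes of like signal.

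Myh4, the IIb chain, had the weakest signal of the 4 on 5 of 6 arrays. Its intensities were 0.0042, 0.0047, 0.0067, 0.0098, 0.0096 and 0.0137 on arrays 1 to 6. Over the floor these were 1.40, 1.57, 3.72, 10.9, 8.0 and 22.8 times. Myh4 ranked 62 and 34 on arrays 1 and 2 and between 15 and 21 on arrays 3 to 6, so a IIb signal stood clear of the floor on each of the last 4. Its intensity spanned 3.26-fold over the 6 arrays, against 10-fold for Myh7, 7.05-fold for Myh2 and 6.74-fold for Myh1. With the floor subtracted the spans were 10.9-fold for Myh4, 17.5-fold for Myh7, 23.9-fold for Myh2 and 15.3-fold for Myh1. On arrays 3 to 6 the intensity of Myh4 spanned 2.04-fold and that of Myh7 2.02-fold. The fast myosin genes are close paralogs, so the value of a single fast isoform is uncertain by whatever its probe takes from the others, which was not tested.

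**Figure D1:**
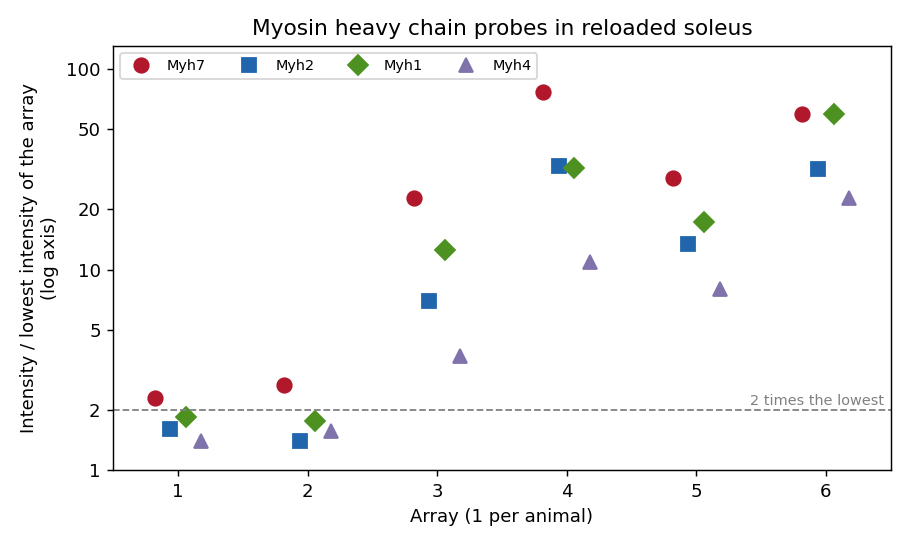
Intensity of the 4 myosin heavy chain probes divided by the lowest intensity of the same array, on a log axis, for each of 6 arrays (1 animal each; points are single values, set side by side). All lie between 1.40 and 2.67 on arrays 1 and 2 and between 3.72 and 77.0 on arrays 3 to 6, and Myh7 is the highest on every array.

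Together the 4 probes held 2.15% and 2.23% of the summed intensity of arrays 1 and 2, and 8.29%, 13.8%, 8.07% and 10.4% of that of arrays 3 to 6. With the floor subtracted from each probe, which gives what is called net signal here, they held 2.83% and 3.06%, then 12.6%, 16.7%, 10.3% and 11.8%. The low share on arrays 1 and 2 was there with and without subtraction.

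Spread between arrays was described on the log2 scale and set against that of probes of like signal. The log2 intensity of Myh7 was −5.38 ± 1.36 (SD, n = 6), that of Myh1 −6.01 ± 1.21, of Myh2 −6.44 ± 1.13 and of Myh4 −7.07 ± 0.67. On arrays 3 to 6 the SDs were 0.47, 0.35, 0.52 and 0.42 (n = 4). In limma's variance test 0 of the 4 passed (adjusted p = 0.874 for each), against 2.03% of all probes tested (4 of 197). The smallest unadjusted p was 0.406, for Myh2. Over 12 settings the members' adjusted p ran from 0.834 to 0.998. A p that misses the threshold does not show that the signals were alike between animals.

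The ratio of probes within an array is free of the array's scaling. Its size also depends on how well each probe labels and hybridises and on the length copied, so it is a ratio of signals and not of transcripts, and no test against equality was made. How it differs from array to array is the measurement. On net signal the order was Myh7, Myh1, Myh2, Myh4 on 4 of 6 arrays. On array 4 Myh2 and Myh1 changed places, at a Myh2/Myh1 ratio of 1.03, and on array 2 Myh4 lay above Myh2, at a Myh2/Myh4 ratio of 0.706.

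Slow over IIx, the Myh7/Myh1 ratio was 1.56, 2.17, 1.88, 2.46, 1.70 and 1.01 on arrays 1 to 6. It was above 1 on each, lowest on array 6 and highest on array 4. The mean log2 ratio was 0.79 ± 0.45 (SD, n = 6), or 0.75 ± 0.54 on arrays 3 to 6 (n = 4). Rounding of the deposited values allows 1.5 to 1.63 on array 1 and 1.00 to 1.01 on array 6, so the gap between these arrays is not one of rounding.

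Slow over IIa, the Myh7/Myh2 ratio was 2.17, 4.17, 3.62, 2.38, 2.24 and 1.91 on arrays 1 to 6. Arrays 2 and 3 were high and the other 4 lay close together. The mean log2 ratio was 1.40 ± 0.45 (SD, n = 6), or 1.30 ± 0.39 on arrays 3 to 6. On array 2 the net signal of Myh2 was only 0.0012, of which the last decimal makes up 8.33%, and rounding allows a ratio of 3.85 to 4.55.

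Slow over IIb, the Myh7/Myh4 ratio was 3.25, 2.94, 7.98, 7.69, 3.94 and 2.69 on arrays 1 to 6. Arrays 3 and 4 stood high and the other 4 between 2.69 and 3.94, so arrays 1 and 2 did not split from the rest on net signal. With nothing subtracted they did. The ratio was then 1.64 and 1.70 on arrays 1 and 2, and 6.10, 7.07, 3.57 and 2.62 on arrays 3 to 6. The mean log2 net ratio was 2.10 ± 0.70 (SD, n = 6), or 2.34 ± 0.76 on arrays 3 to 6. Its SD was the largest of the 3 ratios to Myh7 here, but the smallest after quantile normalization (0.54, against 0.78 for Myh7/Myh1 and 0.98 for Myh7/Myh2). With the array's median subtracted it was 0.63, against 0.70 for Myh7/Myh2.

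Among the fast chains, the Myh2/Myh1 ratio was 0.72, 0.522, 0.519, 1.03, 0.759 and 0.527 on arrays 1 to 6. Array 4 was the highest, and arrays 2, 3 and 6 lay between 0.519 and 0.527. The mean log2 ratio was −0.61 ± 0.40 (SD, n = 6), or −0.56 ± 0.47 on arrays 3 to 6. The Myh1/Myh4 ratio was 2.08, 1.35, 4.24, 3.12, 2.32 and 2.68, with a mean log2 ratio of 1.31 ± 0.56 (SD, n = 6), or 1.59 ± 0.37 on arrays 3 to 6. The Myh2/Myh4 ratio was 1.5, 0.706, 2.20, 3.22, 1.76 and 1.41, with a mean log2 ratio of 0.70 ± 0.73 (SD, n = 6), or 1.04 ± 0.51 on arrays 3 to 6. Over 6 arrays the mean of this last ratio was smaller than its SD, through array 2, where both probes lay under 2 times the floor; on arrays 3 to 6, without array 2 (0.95 ± 0.48, n = 5) and with nothing subtracted (0.63 ± 0.61, n = 6) it was larger. For the 5 other pairs the mean log2 ratio was larger in size than its SD.

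**Figure D2:**
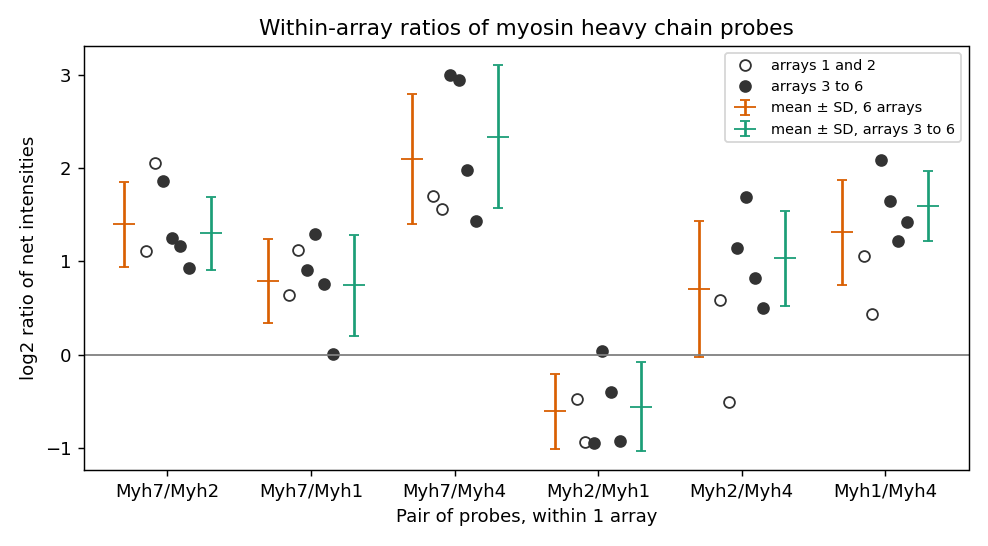
Log2 ratio of net intensities for the 6 pairs of myosin heavy chain probes, 1 point per array; open points are arrays 1 and 2, filled points arrays 3 to 6, and bars are mean ± SD over 6 arrays (orange) and over arrays 3 to 6 (green). The ratios to Myh7 are all above 0, with array 6 of Myh7/Myh1 at 0.01, and Myh2/Myh1 is above 0 on array 4 only.

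As shares of the summed net signal of the 4 probes, Myh7 made up 41.5%, 49.0%, 51.7%, 51.1%, 43.7% and 34.6% on arrays 1 to 6. On net signal array 6 was the lowest and arrays 3 and 4 the highest. The mean was 45.3% ± 6.64 (SD, n = 6), or 45.3% ± 8.0 on arrays 3 to 6 (n = 4). The order of the arrays depended on the processing. With nothing subtracted the shares were 32.2%, 36.0%, 49.4%, 50.4%, 42.6% and 34.4% in array order, so array 1 was the lowest. After quantile normalization arrays 1 and 2 were the highest, at 63.5% and 69.7%. Among arrays 3 to 6, array 6 stayed the lowest in both settings. Within the net signal the 3 fast chains together gave the rest, from 48.3% on array 3 to 65.4% on array 6. Myh7 over the summed fast signal thus ran from 0.529 on array 6 to 1.07 on array 3.

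Myh1 made up 26.3% ± 4.74 of the net signal (SD, n = 6), from 20.8% on array 4 to 34.4% on array 6. Myh2 made up 17.4% ± 3.63, from 11.8% on array 2 to 21.4% on array 4. Myh4 made up 11.1% ± 3.95, from 6.48% on array 3 to 16.7% on array 2; on arrays 3 to 6 it gave 9.26% ± 3.20 (n = 4). Within the fast signal alone, Myh1 gave 47.9% ± 5.63, Myh2 31.9% ± 7.11 and Myh4 20.1% ± 7.05 (SD, n = 6). On array 4 Myh2 gave the largest part of the fast signal (43.9%), and on the other 5 arrays Myh1 did, with 44.2% to 57.0%.

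**Figure D3:**
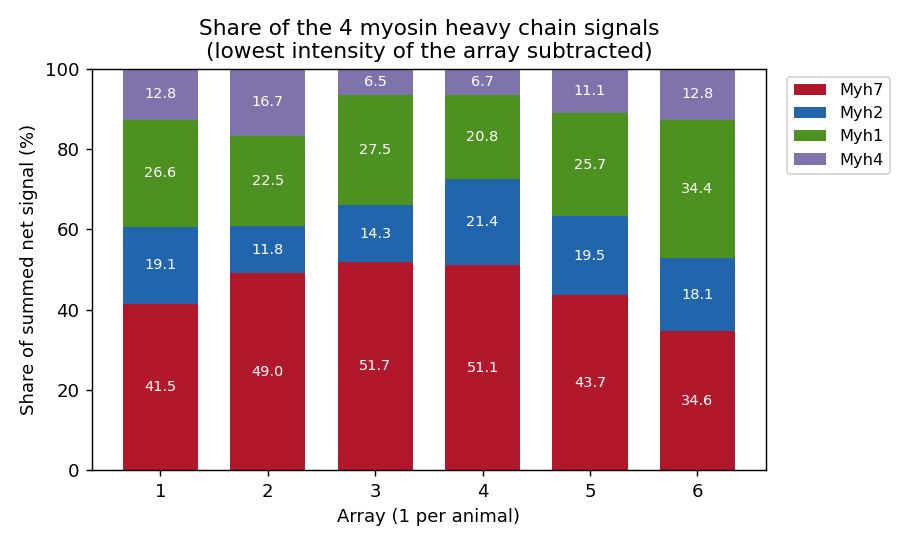
Share of each myosin heavy chain probe in the summed net intensity of the 4 probes, in percent, 1 stacked bar per array. Myh7 takes from 34.6% (array 6) to 51.7% (array 3), and Myh4 from 6.5% (array 3) to 16.7% (array 2).

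Markers of other cell types were set beside these shares. Of 5 endothelial probes 0 reached 2 times the floor on each of arrays 3 to 6, against 13.6% of all probes. The endothelial mean lay at 1.32 and 1.62 times the floor on arrays 3 and 4. On arrays 5 and 6, where the net Myh7 share was lower, it lay at 2.68 and 2.93 times. Pecam1, an adhesion molecule of endothelium, gave 1.5 and 1.89 against 4.58 and 4.33 times, and Cdh5, the cadherin of endothelial junctions, 1.44 and 1.56 against 3.75 and 5.33 times. By intensity Pecam1 gave 0.0027, 0.0017, 0.0055 and 0.0026 on arrays 3 to 6, and Cdh5 0.0026, 0.0014, 0.0045 and 0.0032. The other 3 differed less: over arrays 3 to 6 Kdr ran from 1.28 to 2.0 times, Flt1 from 1.28 to 1.83 times and Tek from 1.11 to 1.33 times. Both probes of the adipocyte list, Fabp4 and Lpl, reached 2 times the floor on each of these arrays. Their mean lay at 2.17, 3.78, 5.38 and 7.0 times it on arrays 3, 4, 5 and 6. Which cells made these 2 transcripts was not tested. The probes at 2 times the floor numbered 37 and 64 on arrays 3 and 4, and 77 and 104 on arrays 5 and 6. The floor itself was 0.0018, 0.0009, 0.0012 and 0.0006 on arrays 3 to 6, and each multiple depends on it. Summed net signal there was 0.0029, 0.0028, 0.0101 and 0.0058 for the endothelial list. For the adipocyte list it was 0.0042, 0.005, 0.0105 and 0.0072. By intensity Fabp4 gave 0.0038, 0.0039, 0.0089 and 0.005, and Lpl 0.004, 0.0029, 0.004 and 0.0034. The part of these differences in the Myh7 share was not tested. On arrays 1 and 2 the means were 1.42 and 1.39 times for the endothelial list and 1.17 and 1.23 times for the adipocyte list. The 3 fibroblast and 2 leukocyte probes had none at 2 times the floor on each of arrays 3 to 6. The fibroblast mean was 1.39, 1.96, 1.31 and 1.67 times on arrays 3 to 6. The leukocyte mean was 1.08, 1.33, 1.17 and 1.25 times. On arrays 1 and 2 their means were 1.46 and 1.39 times for fibroblast and 1.63 and 1.60 times for leukocyte probes. Of the latter, Il6 gave 2.17 and 2.13 times there and Il1b 1.10 and 1.07 times. Probes for smooth muscle, nerve and cardiac markers were not among those named here. All 9 skeletal muscle markers reached 2 times the floor on each of arrays 3 to 6, against 13.6% of all probes. The 4 members, given above, are among the 9, and the marker lists were chosen with earlier results of these data known.

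Other genes of the contractile and fibre-type programmes were taken from fixed lists, which were chosen with earlier results of these data known. Of 10 slow oxidative genes on the array 8 reached 2 times the floor on each of arrays 3 to 6, against 13.6% of all probes. Among them were Mb (myoglobin, which stores oxygen) at 30.3, 50.3, 34.4 and 106 times, and Car3, a carbonic anhydrase of slow fibres, at 7.33, 23.3, 9.67 and 28.2 times. Of 4 fast glycolytic genes 3 did so. Aldoa, an aldolase of glycolysis, reached 54.9, 109, 68.1 and 239 times, and Ldha, the lactate dehydrogenase subunit typical of fast muscle, stayed between 1.07 and 1.67 times on all 6 arrays. Of 4 sarcomere and costamere genes 3 passed, with Des (desmin) at 37.9, 50.0, 18.3 and 53.2 times. Of 7 regulators of fibre type 2 passed: Mef2c, which acts with calcineurin signalling on slow genes, at 4.72, 8.11, 4.58 and 9.67 times, and Myf6, a myogenic factor of mature fibres, at 2.33, 4.0, 2.42 and 5.0 times. Myod1, more abundant in fast fibres, gave 1.67 to 2.50 times and Myog, more abundant in slow ones, 1.17 to 2.0 times on arrays 3 to 6. In limma's variance test 0 of these 25 probes passed, against 2.03% of all probes. Myosin light chains, troponins and the developmental myosins Myh3 and Myh8 had no named probe here.

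Likeness of pattern was described by the SD, over arrays 3 to 6, of the log2 net ratio of a probe to a myosin heavy chain, where a small SD means that both kept their proportion. It was computed for the 30 probes at 2 times the floor on each of these 4 arrays, 29 of them named. Over all 435 pairs of these probes the median SD was 0.67, and the probes share the array's scaling, floor and RNA. The myosin chains kept no tighter proportion among themselves than many other pairs did. Myh1 with Myh4 had 0.37, Myh7 with Myh2 0.39, Myh2 with Myh1 0.47, Myh2 with Myh4 0.51, Myh7 with Myh1 0.54 and Myh7 with Myh4 0.76. Of the 435 pairs 87 had an SD as small as that of Myh1 with Myh4, and 260 one as small as that of Myh7 with Myh4.

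The closest probe to Myh2 was Rps29, a ribosomal protein gene, with net ratios of 1.5, 1.25, 1.40 and 1.43 on arrays 3 to 6 (SD 0.11, n = 4). It was followed by Car3 (0.29) and Myh7 (0.39). Rps29 stayed first over all 6 arrays with nothing subtracted (SD 0.12 over 197 probes) and without array 4, 5 or 6, and came behind Itgb1 and Ucp3 without array 3 (0.10).

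The closest to Myh1 was Aldoa, with net ratios of 4.67, 3.51, 4.13 and 4.07 (SD 0.17), then Car3 (0.27) and Ldhb, the lactate dehydrogenase subunit of oxidative fibres (0.27). Aldoa also came first with nothing subtracted over 6 arrays (0.26) and without array 3 (0.13) or 4 (0.11), came behind Cox6a2 and Myf6 without array 6 (0.21), and was not among the first 3 without array 5. The closest to Myh4 were Ldhb (SD 0.22) and the cytochrome c oxidase subunits Cox5b (0.24) and Cox8a (0.26). Gapdh of glycolysis was next (0.30). The nearest probe to Myh4 was Mb without array 3 (0.03), Fabp4 without array 5 (0.16) and Cox5b without array 6 (0.20).

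Over arrays 3 to 6 the closest probe to Myh7 lay further off than the closest to each of the other chains. Car3 (0.32), the integrin subunit Itgb1 (0.33) and the cytochrome c oxidase subunit Cox6a2 (0.33) came first, followed by Myf6 (0.34). The SD of Car3 fell to 0.06 without array 6, and it was not among the first 3 without array 3 or 4 or over all 6 arrays, so this choice of neighbours rests on single arrays. Cox6a2 came first over all 6 arrays with nothing subtracted (0.27), closer than Ldhb to Myh4 there (0.28), and without array 5 (0.38). Itgb1 came first without array 3 (0.12) and Pgk1 without array 4 (0.12). By list, the median SD of the slow oxidative probes that passed was 0.64 to Myh7, 0.52 to Myh2, 0.33 to Myh1 and 0.49 to Myh4. Over all 30 probes these medians were 0.67, 0.64, 0.47 and 0.53. For the fast glycolytic probes that passed they were 0.61, 0.62, 0.35 and 0.47. Both lists thus gave their smallest median against Myh1, as did all probes. Correlations across the 6 animals were not computed, because arrays 1 and 2 form a cluster of their own.

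**Figure D4:**
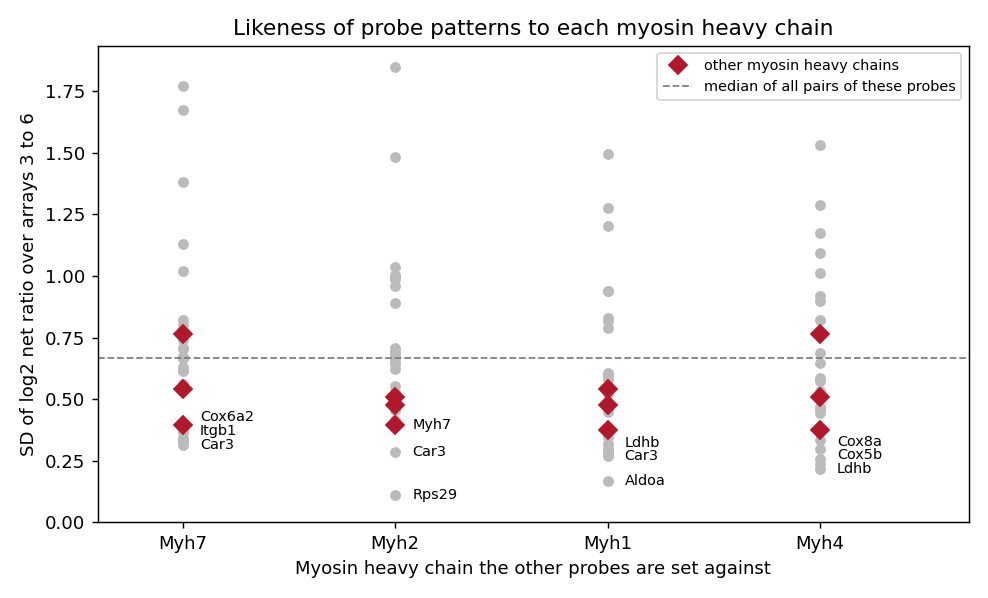
SD over arrays 3 to 6 of the log2 net ratio of each of 29 other probes (grey points) to Myh7, Myh2, Myh1 and Myh4; red diamonds are the other myosin heavy chains, names mark the first 3 named probes (set apart where they would overlap), and the dashed line is the median of all pairs, 0.67. Rps29 lies lowest against Myh2 (0.11) and Aldoa against Myh1 (0.17).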

How the data were processed

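The deposited table holds 1 intensity per probe and sample for 223 probes, on a linear scale with 4 decimals. Per the labels' protocols, RNA was reverse transcribed with gene-specific primers and a single radioactive label. Image analysis, background treatment and scaling are not given in the sources used here; that each array was divided by a sum near that of its probes without 1M and 1O was read from the values. No background subtraction is visible, and array number limits the precision. Probes were named from the platform's annotation through Entrez identifiers (GRCm38.p6 gene table): 205 of 223 had 1 symbol, 204 matched, and all 4 members matched. Arrays are numbered in the order of the sample records.

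Net signal is intensity minus the lowest intensity of the array (probes 1M and 1O left out). Variance was tested with limma 3.58.1 (R 4.3.3; squeezeVar, robust prior following mean log2 intensity, upper-tail F test, Benjamini-Hochberg at 0.05) on the 197 probes above the floor on all arrays, and checked on simulated data. There the test recovered 23 of 40 simulated members with the SD raised 3-fold, and 30 of 40 with it raised 6-fold. Over probes of any signal it recovered 102 and 144 of 200, so it often missed a raised spread. Named genes were the members, the first 3 named probes by likeness to each, and fixed lists. Members, lists and the split of arrays were chosen with earlier results of these data known; the search for shared promoter words and the motifs were chosen after the windows were seen. Promoter windows are from RefSeq. The alternatives were another floor, no subtraction, quantile normalization, arrays 3 to 6, median-centring, other probe filters, and leaving out each array. P-values, where given, set the variance of a probe between these samples against that of probes of like signal.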

Additional observations from a re-analysis of the deposited data

How the results depend on the processing

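The sign of each of the 6 mean ratios was the same in every setting run. Over the ratios, levels, Myh7 share and the count of members in the variance test, 2 values moved by more than the spread between arrays. Both did so under quantile normalization. The mean log2 Myh7/Myh2 ratio became 1.92 in place of 1.40, and the mean Myh7 share 52.6% in place of 45.3%. Leaving out 1 array or keeping arrays 3 to 6 cannot move a mean by that spread, so this measure says nothing of those settings. Quantile normalization gives all 6 arrays a common distribution of values. The Myh7 shares of arrays 1 and 2 then became 63.5% and 69.7%. Those of arrays 3 to 6 became 43.1%, 52.1%, 48.8% and 38.7%. With the array's median subtracted, a setting added after the data were seen, the mean share was 47.7%. Leaving out each array in turn, the mean share ran from 44.0% to 47.4%. The mean log2 ratio ran from 1.26 to 1.49 for Myh7/Myh2, 0.69 to 0.95 for Myh7/Myh1, 1.92 to 2.23 for Myh7/Myh4, −0.74 to −0.54 for Myh2/Myh1, 0.51 to 0.95 for Myh2/Myh4 and 1.16 to 1.48 for Myh1/Myh4. The mean log2 fold over the floor ran from 3.57 to 4.59 for Myh7 and 2.54 to 3.45 for Myh2. For Myh1 it ran from 2.89 to 3.90 and for Myh4 from 1.89 to 2.70. Over all 6 arrays this mean was 4.02 for Myh7, 2.96 for Myh2, 3.39 for Myh1 and 2.33 for Myh4. Over arrays 3 to 6 it was higher, at 5.38, 4.14, 4.66 and 3.21 in the same order. In limma's variance test 0 members passed in any setting, with 0 members at an unadjusted p under 0.05; the count over all probes ran from 0 to 6, with 0 without array 1, 2 or 6, 1 without array 3, 1 after median-centring, and 0 after quantile normalization or on net values, and the cause was not tested. No paired analysis was possible because there is 1 group. On arrays 1 and 2, where Myh2, Myh1 and Myh4 stayed under 2 times the floor, ratios rest on few units of the last decimal.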

Other observations

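The probe identifiers place the 4 myosin heavy chains in 1 column (O), in rows 14, 16, 18 and 20, on the assumption that numbers give rows and letters give columns. Read that way, each lay at least 13.2 steps from the bright probe 1M. The other probe left out of the floor, 1O, lay in column O as well. Its intensity was 4.68 and 4.84 on arrays 1 and 2, and between 0.1627 and 0.3055 on arrays 3 to 6. Neighbouring members lay 2 rows apart, and the brightest of them, Myh7, reached 77.0 times the floor. Probes of other genes also lay within 2 steps of each: beside Myh7 and Myh2 they reached at most 3.67 times the floor on any array, beside Myh1 53.2 times (Des) and beside Myh4 34.3 times (Ttn). The SD of the log2 net ratio over arrays 3 to 6 was 0.82 between Des and Myh1 and 0.50 between Ttn and Myh4, against a median of 0.67 over all pairs.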
